A study of Homo sapiens with 6 samples.

Results

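MAP7, a microtubule-associated protein that brings the motor kinesin-1 onto the microtubule, was examined in K562 cells depleted of nucleophosmin (NPM), together with its 3 paralogs MAP7D1, MAP7D2 and MAP7D3 and with 6 genes of other microtubule-associated proteins (MAP1B, MAP1S, MAP4, STMN1, MAPRE1 and MAPRE2). These are 10 of the 20802 genes measured. They were picked by name because MAP7 was higher in the knockdown cells, so the difference in MAP7 between the groups is what chose the set and is given below as a description, with no test. MAP7 averaged 75.2 ± 11.6 RPM (reads scaled to a common total per library; SD, n = 3) in knockdown cells and 18.0 ± 1.45 RPM (SD, n = 2) in control cells, whereas none of the 8 other genes of the set that could be tested passed the threshold used for all genes (adjusted p of 0.05), which 0.13% of the genes tested passed.

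K562 is a human line from the blast crisis of a chronic myeloid leukemia, with erythroid features. The NPMKD group was K562 infected with shNPM300, a short hairpin RNA against NPM1 carried by the lentiviral plasmid pLKO.1-puro, in 3 libraries. The shSc group was K562 infected with a scrambled shRNA, also in 3 libraries, and cells of both groups were grown in puromycin (2 µg/mL). A single hairpin represents the knockdown here, so effects of NPM loss and off-target effects of shNPM300 cannot be told apart. The methods describe the knockdown and scrambled cells as clones, and no source used here says whether a group's 3 libraries were grown apart. Each p-value therefore weighs a difference against a spread that may be no more than technical. The comparison asks which genes differ between cells with shNPM300 and cells with the scrambled shRNA. The study used the knockdown to examine loss of nuclear NPM function, but these data measure RNA and not nuclear NPM.

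RNA was measured by AmpliSeq, in which each gene is read through 1 amplicon. RPM values can therefore be compared between libraries for 1 gene, but not between genes, because amplicons differ in efficiency. Depth was 11726763 to 18981902 reads in NPMKD libraries and 8842344 to 14187046 reads in shSc libraries. The study kept 3 NPMKD and 2 shSc libraries for its comparison without naming them in the sources used here. Replicate 3 of shSc correlated least with the others (0.825 to 0.864, against 0.925 to 0.973 among the other 5) and had 16619 genes above 0, against 13893 to 14600 in the others. It was set aside from the comparison, and its value stands beside the results that it touches. NPM1, the targeted gene, was at 1302, 1168 and 655 RPM in NPMKD, against 3856 and 2968 RPM in shSc and 3146 RPM in shSc replicate 3. Every NPMKD library lay below every shSc library, although the log2 fold change of -1.76 (standard error 0.35) did not pass the threshold in limma (adjusted p = 0.158); it did in DESeq2 on the recovered reads (-1.71, adjusted p = 0.0014). Processed pseudogenes of NPM1 can contribute reads to it. All 14 erythroid and K562 marker genes (GATA1, KLF1, the fetal globins and others) were at 1 RPM or more in at least 1 of the 5 libraries compared. Their summed level was 8262 to 19383 RPM in NPMKD and 10244 to 16749 RPM in shSc.

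Microtubules are polymers of alpha- and beta-tubulin that grow and shrink at their ends, and microtubule-associated proteins set how stable they are and what they carry. Structural MAPs bind along the lattice, end-binding proteins ride on growing tips and recruit other factors there, and stathmins bind free tubulin and favor shrinkage. The MAP7 family sits on the lattice and recruits or activates kinesin-1, which carries organelles and positions nuclei; MAP7 itself was first described in epithelial cells. In dividing cells such as K562 several of these proteins also act on the mitotic spindle.

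MAP7 lies on chromosome 6 of GRCh37 (136663419 to 136871957, minus strand). The RefSeq table used here lists 4 transcription starts for it, and the single amplicon does not tell which of them gave the transcripts measured. Since MAP7 was the member the set was chosen for, the 250 bases before each of its starts are shown, from RefSeq on GRCh38.p14, minus strand, read 5′ to 3′. Capitals mark matches to 1 of 4 short motifs: the letters GATA, the box CCAAT, the GC box GGGCGG and the TATA box TATAAA. Each motif was searched on both strands, so a match on the other strand appears as its reverse complement, and no match overlaps another in these windows.
Start 1, chr6:136550423-136550672: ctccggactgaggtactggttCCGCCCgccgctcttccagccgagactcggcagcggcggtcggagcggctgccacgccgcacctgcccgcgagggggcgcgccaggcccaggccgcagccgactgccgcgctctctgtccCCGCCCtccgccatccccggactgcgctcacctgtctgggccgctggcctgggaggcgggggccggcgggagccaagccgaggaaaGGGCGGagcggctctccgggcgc
Start 2, chr6:136527145-136527394: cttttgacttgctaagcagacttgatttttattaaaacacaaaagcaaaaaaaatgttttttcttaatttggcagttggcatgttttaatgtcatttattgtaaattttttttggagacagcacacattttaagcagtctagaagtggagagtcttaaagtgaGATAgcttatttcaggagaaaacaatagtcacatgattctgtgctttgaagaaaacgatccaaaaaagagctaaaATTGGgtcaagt
Start 3, chr6:136526583-136526832: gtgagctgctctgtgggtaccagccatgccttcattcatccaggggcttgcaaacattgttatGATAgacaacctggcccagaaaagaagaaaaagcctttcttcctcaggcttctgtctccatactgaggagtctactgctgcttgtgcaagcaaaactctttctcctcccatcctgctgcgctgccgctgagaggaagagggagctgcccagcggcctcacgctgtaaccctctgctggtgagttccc
Start 4, chr6:136466879-136467128: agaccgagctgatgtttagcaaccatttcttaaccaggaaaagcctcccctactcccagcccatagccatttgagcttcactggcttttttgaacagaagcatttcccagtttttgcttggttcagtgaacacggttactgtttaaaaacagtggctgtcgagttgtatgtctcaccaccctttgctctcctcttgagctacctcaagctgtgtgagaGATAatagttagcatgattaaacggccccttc

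The first window was GC-rich (77.6% G or C, 33 CpG dinucleotides) and held 3 GC boxes, and the other windows were not of this kind. Their GC content was 31.2%, 54.0% and 45.6%, and they held 1, 4 and 4 CpG dinucleotides. Over the 35116 RefSeq promoter windows of the same length the median GC content was 58% and the median number of CpG dinucleotides was 11. A GATA match was present in each of the windows of starts 2, 3 and 4 (1 in each) and in 45.6% of all windows. The window of start 2 also held 1 CCAAT match (32.0% of all windows had one), GC boxes were in 42.6% of all windows, and a TATA box, found in 10.7% of all windows, was in none of the 4. These matches describe the letters of the windows and not binding.

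MAP7 was at 72.1, 65.4 and 88.0 RPM in NPMKD, against 19.0 and 17.0 RPM in shSc and 18.1 RPM in shSc replicate 3. These values rest on 857, 767 and 1670 reads in NPMKD, against 270 and 213 reads in shSc and 160 in shSc replicate 3. The groups were far apart: the lowest NPMKD library was over every shSc library, the 3 shSc libraries differed little, and shSc replicate 3 lay between the other shSc libraries. The ratio of the means was 4.17, and the difference on the log2(RPM + 0.5) scale was 2.02 (standard error 0.26). It was 2.02 in all 6 libraries and stayed between 1.90 and 2.12 over 20 other ways of processing the data. All of these reuse the libraries in which MAP7 was chosen, so this range describes the difference and is no support for it. Among the 11554 genes tested, 63 had a larger positive difference. In that fit 15 genes, 0.13% of those tested, passed an adjusted p of 0.05, 8 higher in NPMKD (0.0692%) and 7 lower (0.0606%). MAP7 was 1 of the 8, which restates how it was chosen.

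**Figure D1:**
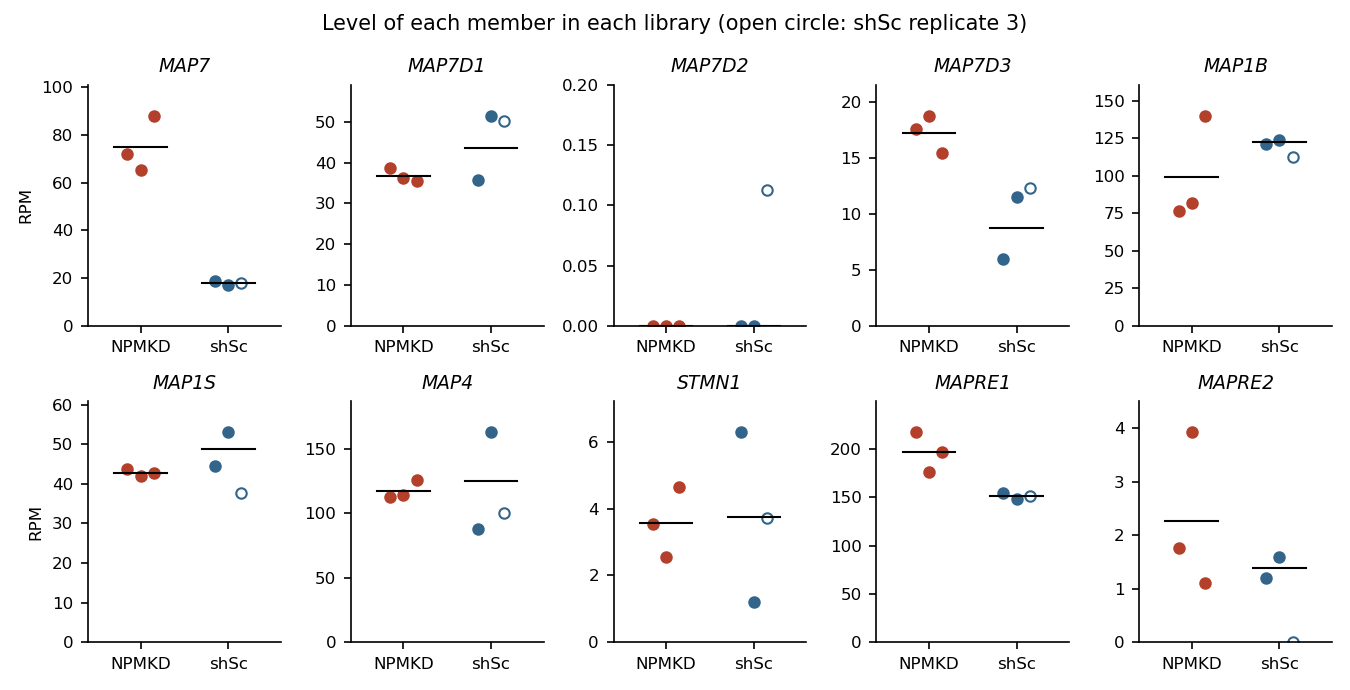
RPM of each of the 10 genes in the 3 NPMKD libraries (left in each panel) and the 3 shSc libraries, with shSc replicate 3 drawn as an open symbol and bars at the means of the libraries compared (n = 3 and n = 2). MAP7 is between 65.4 and 88.0 RPM in NPMKD and between 17.0 and 19.0 RPM in shSc, while MAP7D2 is at 0 in all but 1 library.

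MAP7D1, a widely expressed paralog, lies on chromosome 1 (36621180 to 36646450, plus strand) and, like MAP7, helps kinesin-1 onto microtubules. It was at 38.7, 36.2 and 35.6 RPM in NPMKD, against 35.7 and 51.4 RPM in shSc and 50.2 RPM in shSc replicate 3. Its NPMKD libraries were close together and overlapped with shSc replicate 1. This gave a log2 difference of -0.22 with a 95% interval of -0.84 to 0.41 (adjusted p = 0.922, limma), an interval that leaves out a 2-fold change in either direction.

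MAP7D3, a paralog on the X chromosome (135295379 to 135338641, minus strand) that also binds kinesin-1, had the largest difference after MAP7 in the 5 libraries compared, though not in all 6, where MAPRE2 was further from 0. It was at 17.6, 18.8 and 15.4 RPM in NPMKD, against 5.99 and 11.5 RPM in shSc and 12.3 RPM in shSc replicate 3. The groups did not overlap, with or without shSc replicate 3. The log2 difference of 1.01 (95% interval 0.17 to 1.84) did not pass the adjusted threshold (adjusted p = 0.597, limma). It was 0.83 in all 6 libraries, and 0.56 without shSc replicate 1, whose value was the lowest, against 1.45 without shSc replicate 2.

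MAP7D2, the paralog known from nervous tissue, lies on the X chromosome (20024831 to 20135025, minus strand). It had no reads in the 5 libraries compared, where 3 reads would correspond to 0.158 to 0.256 RPM, and 1 read (0.113 RPM) in shSc replicate 3. It was below the minimum for the test, and a difference was not detectable at this depth.

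The makeup of the family within a library does not depend on how libraries are scaled. MAP7 took 56.2%, 54.3% and 63.3% of the summed RPM of the 4 family amplicons in NPMKD, against 31.3% and 21.3% in shSc and 22.4% in shSc replicate 3. MAP7D1 took 30.1%, 30.1% and 25.6% in NPMKD, against 58.8% and 64.4% in shSc and 62.2% in shSc replicate 3. So the amplicon with the most reads was that of MAP7 in each NPMKD library and that of MAP7D1 in each shSc library. The share of MAP7D3 overlapped between the groups, at 11.1% to 15.6% in NPMKD and 9.86% to 14.4% in shSc. The ratio of MAP7 to MAP7D1 reads was 1.86, 1.80 and 2.47 in NPMKD, against 0.53 and 0.33 in shSc and 0.36 in shSc replicate 3. The summed level of the family was 128.4, 120.4 and 139.0 RPM in NPMKD, against 60.8 and 79.9 RPM in shSc and 80.7 RPM in shSc replicate 3. These shares contain MAP7, which was chosen for its difference, and amplicon efficiencies are part of them, so they are not shares of molecules.

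**Figure D2:**
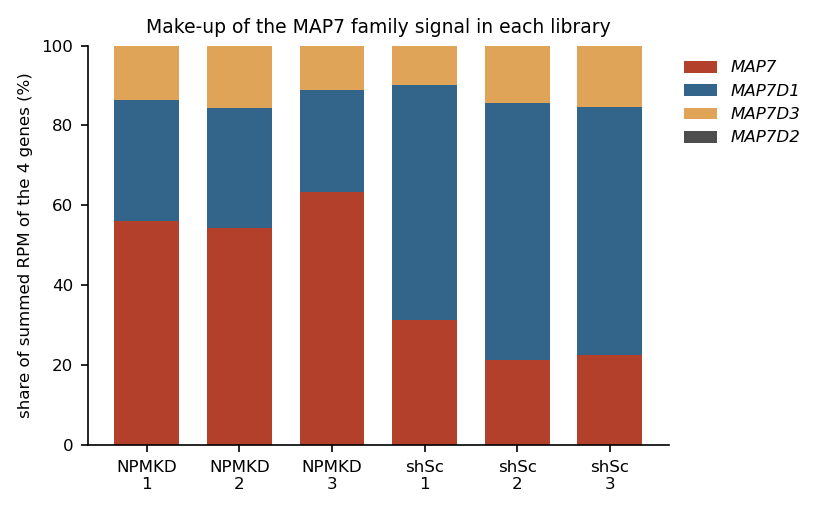
Percent of the summed RPM of MAP7, MAP7D1, MAP7D2 and MAP7D3 taken by each gene in each library, NPMKD libraries left of shSc libraries. MAP7 has 54.3% to 63.3% in NPMKD and 21.3% to 31.3% in shSc, and MAP7D1 has 25.6% to 30.1% in NPMKD and 58.8% to 64.4% in shSc.

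Outside the MAP7 family, the structural MAPs of the set showed no difference that passed the test. MAP1B, a MAP best known from growing axons, lies on chromosome 5 (71403061 to 71505392, plus strand). It was at 76.7, 81.8 and 139.9 RPM in NPMKD, against 121.0 and 123.9 RPM in shSc and 112.9 RPM in shSc replicate 3. NPMKD replicates 1 and 2 lay under every shSc library and NPMKD replicate 3 over every one. The log2 difference was -0.35 (95% interval -1.06 to 0.36, adjusted p = 0.882, limma) and -0.63 without NPMKD replicate 3 (adjusted p = 0.346).

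MAP1S, a widely expressed relative of MAP1B that has been tied to mitochondria and autophagy, lies on chromosome 19 (17830051 to 17845322, plus strand). Its level hardly varied among NPMKD libraries, at 43.7, 42.0 and 42.8 RPM, against 44.5 and 53.0 RPM in shSc and 37.8 RPM in shSc replicate 3. The groups did not overlap in the 5 libraries compared, by a small margin, and overlapped once shSc replicate 3 was counted. Its log2 difference was -0.18 (95% interval -0.74 to 0.38, adjusted p = 0.922, limma), and with shSc replicate 3 in place of replicate 2 it was 0.06.

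MAP4, the main structural MAP of non-neuronal cells and a relative of tau, lies on chromosome 3 (47892180 to 48130762, minus strand). It was at 112.3, 114.1 and 126.2 RPM in NPMKD, against 87.5 and 162.7 RPM in shSc and 100.5 RPM in shSc replicate 3. The shSc libraries lay on both sides of the NPMKD libraries. The log2 difference was -0.02 (95% interval -0.72 to 0.67, adjusted p = 0.993, limma), and its sign depended on the shSc library used: -0.47 without shSc replicate 1, 0.42 without shSc replicate 2.

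STMN1 encodes stathmin, which binds tubulin dimers and promotes microtubule shrinkage, and lies on chromosome 1 (26210672 to 26233482, minus strand). It was at 3.53, 2.56 and 4.64 RPM in NPMKD, against 6.27 and 1.20 RPM in shSc and 3.73 RPM in shSc replicate 3. These are 30 to 88 reads in NPMKD and 15 to 89 reads in shSc, and the shSc libraries spanned the whole range of NPMKD. On the log2 scale the difference was 0.23 with a 95% interval of -1.16 to 1.63 (adjusted p = 0.959, limma), while the ratio of the means was 0.96, so not even a direction can be given with this spread between libraries.

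MAPRE1 encodes EB1, the end-binding protein on which most plus-end tracking depends, and lies on chromosome 20 (31407760 to 31438211, plus strand). It was at 216.9, 176.0 and 197.2 RPM in NPMKD, against 154.3 and 148.3 RPM in shSc and 151.5 RPM in shSc replicate 3. Each NPMKD library was over each shSc library, and the shSc libraries lay within a few RPM of each other. The ratio of the means was 1.30. The log2 difference of 0.37 (95% interval -0.14 to 0.89) did not pass (adjusted p = 0.804, limma), and the interval leaves out a 2-fold change.

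MAPRE2 encodes EB2, a weaker tip-binding relative of EB1, and lies on chromosome 18 (32556892 to 32723434, plus strand). It was at 1.77, 3.92 and 1.11 RPM in NPMKD, against 1.20 and 1.595 RPM in shSc and 0 RPM in shSc replicate 3. This corresponds to 21, 46 and 21 reads in NPMKD, against 17 and 20 reads in shSc. In shSc replicate 3, 3 reads would correspond to 0.339 RPM, and the 95% counting interval of the 0 reaches 0.417 RPM. The groups overlapped in the 5 libraries compared. For this gene the log2 difference was 0.42 (95% interval -0.75 to 1.59, adjusted p = 0.918, limma), 0.02 without NPMKD replicate 2, and 1.06 in all 6 libraries.

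Thus 0 of the 8 tested genes other than MAP7 passed in limma, and also 0 in edgeR and 0 in DESeq2 on the recovered reads; 1 of the 8, MAP7D3, had an unadjusted p under 0.05, a level that 7.14% of all tested genes reached. In 3 of the 8 (37.5%; MAP7D3, MAP1S and MAPRE1) the groups did not overlap, against 22.8% of all genes tested (12.3% with NPMKD higher, 10.4% lower). In all 6 libraries this held for 2 of the 8, against 13.9% of all genes tested. The median log2 difference of the 8 was 0.11, and that of all genes tested was 0.01. Of the 8 intervals, 7 contained 0, and 4 (MAP7D1, MAP1S, MAP4 and MAPRE1) left out a 2-fold change in either direction.

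**Figure D3:**
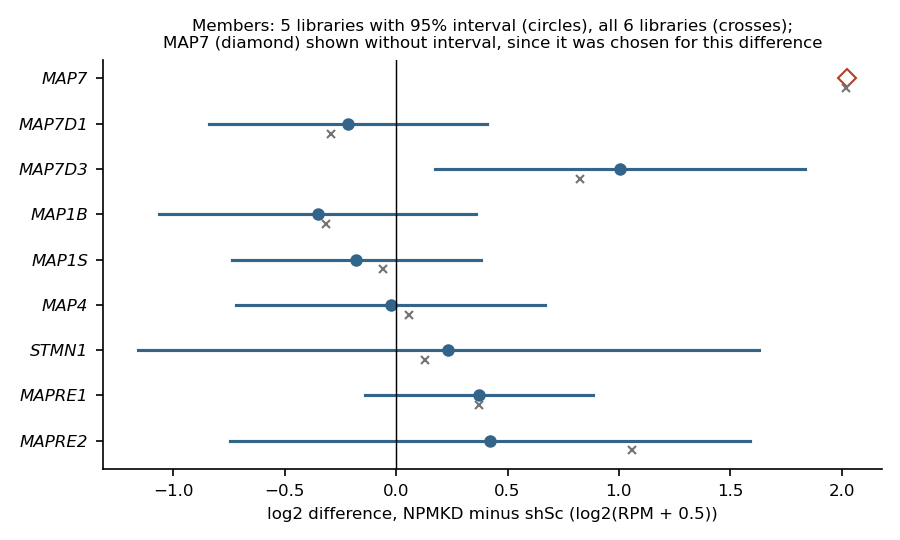
Log2 difference (NPMKD over shSc, log2(RPM + 0.5)) of the 9 genes of the set with enough reads, from the 5 libraries compared (circles, with 95% limma intervals) and from all 6 libraries (crosses). The diamond marks MAP7, with no interval. MAP7, which was chosen for this difference, stands at 2.02, MAP7D3 is next at 1.01, and the 7 intervals of the other genes contain 0.

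The rest of the microtubule machinery was followed in 11 lists of genes grouped by role, 195 genes in all, of which 138 were tested besides MAP7. None passed in limma, and the smallest adjusted p was 0.171. An unadjusted p under 0.05 was found for 9 of the 138, a level that 7.14% of all tested genes reached. The groups did not overlap for 27 of the 138 (19.6%, against 22.8% of all genes), 16 with NPMKD higher and 11 lower. With shSc replicate 3 counted, this held for 18 of the 138, against 13.9% of all genes tested. The median log2 difference was -0.03. On the recovered reads 0 of the 138 passed in edgeR, which 0.0952% of all genes did. In DESeq2 4 of the 138 passed (2.9%, against 1.64% of all genes): NAV1, TUBA3C, EML2 and PAK1.

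Among the structural MAPs 13 of 28 were tested, the groups did not overlap for 3 (23.1%, close to the 22.8% of all genes tested), all lower in NPMKD, and the median log2 difference was -0.18. EML2, an EMAP-like protein that binds the lattice, was at 38.7, 29.6 and 40.9 RPM in NPMKD, against 66.4 and 85.9 RPM in shSc and 47.3 RPM in shSc replicate 3. Its NPMKD libraries were all under its shSc libraries. The log2 difference was -1.06 (95% interval -1.69 to -0.43, adjusted p = 0.303, limma), and in DESeq2 it was -1.08 (adjusted p = 0.0304). The related EML3 was at 37.2 to 55.5 RPM in NPMKD and 65.3 to 86.0 RPM in shSc, but at 42.6 RPM in shSc replicate 3, inside the NPMKD range.

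Of the plus-end tracking proteins 23 of 33 were tested, the groups did not overlap for 5 (3 higher, 2 lower; 21.7%, against 22.8% of all genes), and the median was -0.02. NAV1, a neuron navigator protein that follows growing tips, was at 47.2, 41.4 and 60.3 RPM in NPMKD, against 20.02 and 17.1 RPM in shSc and 14.02 RPM in shSc replicate 3. Its groups were well apart in all 6 libraries. The log2 difference was 1.38 (95% interval 0.73 to 2.03, adjusted p = 0.171, limma; 1.40, adjusted p = 7.1e-04, DESeq2). GAS2L3, which links actin to microtubules, had fewer reads, at 5.22 to 7.64 RPM in NPMKD and 2.15 to 3.38 RPM in shSc, and also did not overlap. STIM1, a calcium sensor of the endoplasmic reticulum that binds EB1, was at 46.4 to 69.4 RPM in NPMKD and 78.2 to 79.9 RPM in shSc, with 49.4 RPM in shSc replicate 3. CKAP5, the tip polymerase, had the highest mean in the list and overlapped, at 344.8 to 408.2 RPM in NPMKD and 299.3 to 493.5 RPM in shSc.

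Only 3 of 12 stathmins and other tubulin-binding proteins were tested, and none separated the groups. STMN3, a stathmin relative, was at 53.3 to 79.9 RPM in NPMKD and 62.0 to 115.4 RPM in shSc. Of the severing and minus-end proteins 9 of 12 were tested and the groups did not overlap for 2 (22.2%, against 22.8% of all genes). Spastin (SPAST), which cuts microtubules, was at 32.6, 57.9 and 41.5 RPM in NPMKD, against 21.9 and 31.3 RPM in shSc and 26.5 RPM in shSc replicate 3, which did not overlap (log2 difference 0.70, 95% interval -0.07 to 1.46, adjusted p = 0.751, limma). The katanin KATNAL1 was at 6.48 to 10.64 RPM in NPMKD and 10.64 to 11.80 RPM in shSc, where the highest NPMKD value and the lowest shSc value are the same to the digits given, and shSc replicate 3 (8.26 RPM) lay inside the NPMKD range. KATNA1, the classical katanin subunit, overlapped at 39.0 to 55.7 RPM in NPMKD and 41.4 to 55.3 RPM in shSc.

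Of the tubulins 16 of 22 were tested, the groups did not overlap for 4 (3 higher, 1 lower), which is 25% of the list against 22.8% of all genes, and the median was 0.12. Several tubulin genes are nearly identical to each other or to pseudogenes and can share reads, so values of single tubulin genes are uncertain. TUBA3C was at 8.84, 8.27 and 6.16 RPM in NPMKD, against 2.33 and 0.96 RPM in shSc, and shSc replicate 3, at 7.13 RPM, fell inside the NPMKD range. Its log2 difference was 2.01 (adjusted p = 0.177, limma; 2.24, adjusted p = 0.0052, DESeq2) and 1.37 in all 6 libraries. TUBB2B was lower, at 8.42, 10.8 and 25.8 RPM in NPMKD, against 26.8 and 50.9 RPM in shSc, with 13.9 RPM in shSc replicate 3 again inside the NPMKD range. TUBA1A, an alpha-tubulin, was at 47.5 to 79.5 RPM in NPMKD and 32.0 to 42.9 RPM in shSc, with 23.1 RPM in shSc replicate 3. TUBB, a beta-tubulin with the highest mean RPM of the list, was at 2161, 2200 and 2615 RPM in NPMKD, against 727 and 2596 RPM in shSc and 2522 RPM in shSc replicate 3. Replicate 1 of shSc stood apart for TUBB, and the log2 difference was 0.75, or -0.16 without that library.

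All 19 genes of microtubule nucleation were tested, the groups did not overlap for 4 (1 higher, 3 lower), or 21.1% against 22.8% of all genes, and the median was -0.06. TUBGCP2, a subunit of the gamma-tubulin complex, was at 21.7 to 37.7 RPM in NPMKD and 39.0 to 61.8 RPM in shSc, with 27.1 RPM in shSc replicate 3. MZT2B, a small partner of that complex, was at 43.4 to 79.8 RPM in NPMKD and 90.04 to 96.6 RPM in shSc, with 61.7 RPM in shSc replicate 3. For both genes shSc replicate 3 fell inside the NPMKD range. TUBGCP6 was at 28.9 to 34.5 RPM in NPMKD and 37.96 to 43.3 RPM in shSc, with 74.3 RPM in shSc replicate 3, and TUBGCP4 overlapped at 73.1 to 121.9 RPM in NPMKD and 85.3 to 93.6 RPM in shSc.

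Of the genes of tubulin folding and modification 22 of 30 were tested, the groups did not overlap for 5 (4 higher, 1 lower), or 22.7% against 22.8% of all genes, and the median was -0.10. TTC5, which takes part in the decay of tubulin mRNA when free tubulin is high, varied widely among the knockdown libraries, at 2.19, 8.87 and 17.4 RPM in NPMKD, against 19.0 and 24.1 RPM in shSc and 13.8 RPM in shSc replicate 3. TBCA, a folding cofactor of beta-tubulin, was at 161.5 to 232.7 RPM in NPMKD and 132.6 to 153.5 RPM in shSc. AGTPBP1, which removes glutamates from tubulin tails, was at 9.33 to 12.1 RPM in NPMKD and 8.69 to 9.16 RPM in shSc, and neither gene overlapped with shSc replicate 3 either. TTLL12, of the tubulin ligase-like family, overlapped at 182.5 to 247.6 RPM in NPMKD and 204.8 to 262.0 RPM in shSc.

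In the remaining lists 1 gene each did not overlap, and these shares are read against the 22.8% of all genes. All 17 spindle MAPs were tested and 1 (5.9%) did not overlap, RACGAP1 of the central spindle, at 59.2, 60.6 and 60.0 RPM in NPMKD, against 48.1 and 46.9 RPM in shSc and 47.6 RPM in shSc replicate 3. Its spread within groups was small, and its ratio of means was 1.26 (log2 difference 0.33, adjusted p = 0.840, limma). BIRC5, a subunit of the chromosomal passenger complex, overlapped at 189.0 to 336.3 RPM in NPMKD and 206.3 to 227.1 RPM in shSc. Of the kinases that act on MAPs 8 of 11 were tested and 1 (12.5%) did not overlap. This was PAK1, which phosphorylates stathmin among others, at 36.0, 37.2 and 38.1 RPM in NPMKD, against 15.7 and 19.8 RPM in shSc and 24.4 RPM in shSc replicate 3. Its log2 difference was 1.05 (95% interval 0.44 to 1.66, adjusted p = 0.287, limma; 1.05, adjusted p = 0.0363, DESeq2). GSK3A, a kinase of tau, overlapped at 115.5 to 183.1 RPM in NPMKD and 131.3 to 173.5 RPM in shSc.

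Kinesin-1, the motor that the MAP7 family recruits, is built from KIF5 heavy chains and KLC light chains. Of its 7 genes 6 were tested, none passed, and the log2 differences lay between -0.31 and 0.22 with a median of 0.05. KIF5B, the heavy chain of most tissues, was at 343.1, 303.0 and 307.5 RPM in NPMKD, against 299.3 and 256.6 RPM in shSc and 258.6 RPM in shSc replicate 3. It was the 1 subunit gene of the 6 (16.7%) whose groups did not overlap, by a small margin, and the log2 difference was 0.20 (95% interval -0.31 to 0.70, adjusted p = 0.914, limma), an interval that leaves out a 2-fold change.

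**Figure D4:**
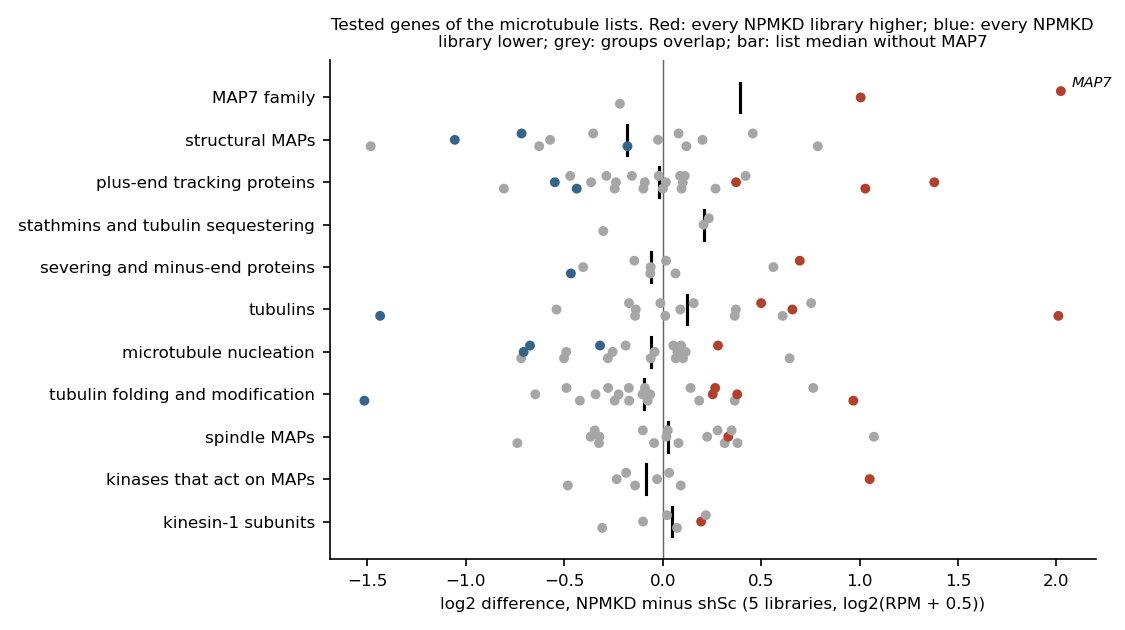
Log2 difference (NPMKD over shSc) of each tested gene in the 11 microtubule lists, with a bar at the median of each list without MAP7. Points are red where every NPMKD library was higher than shSc replicates 1 and 2, blue where every one was lower, and grey where the groups overlapped. List medians lie between -0.18 and 0.39, the highest being that of the 2 tested MAP7 paralogs.

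To place the pattern of MAP7, its log2 values over the 6 libraries, centred on their mean, were compared with those of the 9638 other tested genes that averaged 5 RPM or more in 1 of the groups. The nearest genes by root mean square difference were LRRC4B (0.18), SPRR2D (0.24), MYO3B (0.27), SEPP1 (0.28) and COL15A1 (0.29), all on the log2 scale. They were chosen for this likeness, so their differences between groups follow from it. MYO3B, an unconventional myosin, was at 45.2, 55.5 and 47.8 RPM in NPMKD, against 15.5 and 11.0 RPM in shSc and 16.6 RPM in shSc replicate 3. SEPP1, the plasma selenium carrier selenoprotein P, was at 36.9, 31.5 and 42.2 RPM in NPMKD, against 16.0 and 9.41 RPM in shSc and 9.61 RPM in shSc replicate 3. The other genes had fewer reads: LRRC4B, a synaptic adhesion protein, was at 5.20 to 8.22 RPM in NPMKD and 1.28 to 1.83 RPM in shSc, SPRR2D, of a family of closely similar cornified envelope genes that can share reads, at 8.19 to 10.9 RPM in NPMKD and 1.62 to 2.47 RPM in shSc, and the basement membrane collagen COL15A1 at 3.79 to 7.85 RPM in NPMKD and 1.28 to 1.48 RPM in shSc. Of the set itself MAP7D3 came nearest to MAP7, at place 279 (0.72), then MAPRE1 at place 1015 (0.83). MAP4, MAP1S, MAP1B and MAP7D1 followed at places 4708, 5295, 7186 and 7220. The pattern of MAP7 is mainly the group difference it was chosen for, so these places are no separate evidence of likeness.

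**Figure D5:**
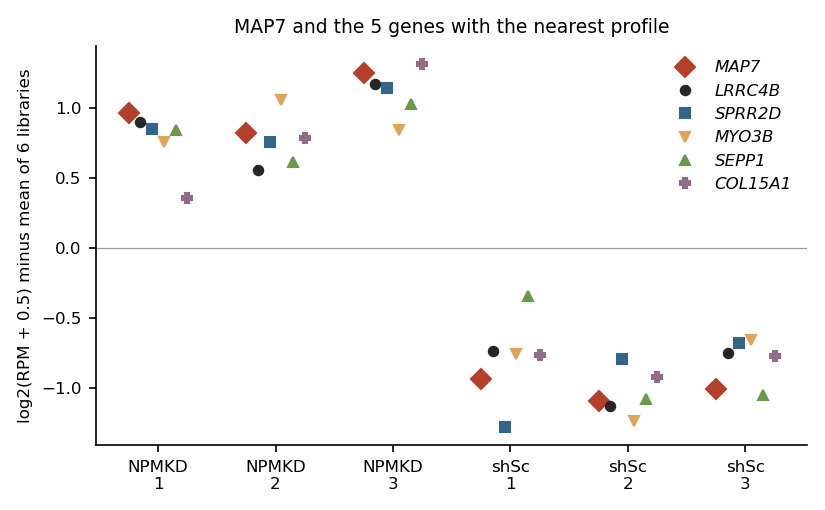
Centred log2(RPM + 0.5) of MAP7 and of the 5 genes with the nearest pattern in each of the 6 libraries, NPMKD left of shSc. All 6 genes are over their own mean in the 3 NPMKD libraries and under it in the 3 shSc libraries, which is the likeness they were chosen for.

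MAP7 is known from epithelial cells and MAP1B and MAP7D2 from neurons, so markers of these and other cell types were summed in each library. Of 15 epithelial markers 7 reached 1 RPM in any of the 5 libraries (EPCAM, KRT8, KRT18, KRT19, CLDN3, CLDN7 and PRSS8). KRT5 was at 0, and CDH1, KRT14, KRT17, ESRP1, ESRP2, CLDN4 and OCLN stayed under 1 RPM. The summed level overlapped, at 711 to 1570 RPM in NPMKD and 832 to 922 RPM in shSc. Of 14 neuronal markers 5 reached 1 RPM and 7, among them RBFOX3, SNAP25 and DCX, were at 0. The neuronal sum did not overlap, at 53.0, 46.0 and 48.8 RPM in NPMKD, against 30.0 and 26.1 RPM in shSc and 36.0 RPM in shSc replicate 3. Of single genes tested, 22.8% did not overlap in the 5 libraries and 13.9% in all 6. Most of the neuronal sum came from GAD1, a gene named after its values were seen. GAD1 was at 37.95, 33.7 and 35.7 RPM in NPMKD, against 20.4 and 15.7 RPM in shSc and 20.8 RPM in shSc replicate 3. Its part in the difference of MAP7 was not tested. Fibroblast, T and NK cell and B cell markers reached 1 RPM for 3 of 10, 3 of 9 and 1 of 7 genes. Their sums overlapped in the 5 libraries compared, and in shSc replicate 3 they stood at 94.1, 158.6 and 110.7 RPM. In bulk RNA fewer cells with a transcript and less of it per cell cannot be told apart.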

How the data were processed

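RNA pre-treated with DNaseI was amplified with the Ion AmpliSeq transcriptome kit and sequenced on an Ion Proton. According to the methods, the authors used Torrent Suite for base calling and alignment against hg19, and the AmpliSeqRNA plugin for the reads of each gene, whose version is not given in the sources used here. The deposited values are RPM of each of 20802 genes, scaled so that every library has the same total. The 10 spike-in rows held 0 and were not used. From the RPM steps, whole reads were recovered (100% of values, tolerance 0.1 read). Chi-square per gene between any 2 libraries was 33.9 to 187.8, so none was a copy of another. Intervals and floors (3 reads) cover counting error only.

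NPMKD replicates 1, 2 and 3 were compared with shSc replicates 1 and 2. The 11554 genes that reached 1 RPM in 2 or more of these 5 libraries entered limma 3.58.1 (R 4.3.3), fitted without covariates and with the variance trend to log2(RPM + 0.5), a scale that understates changes of low genes. P-values were adjusted over all of them by Benjamini-Hochberg, with a threshold of 0.05. The procedure was tested on simulated data with independent noise of set size and no outlying library. That test therefore does not show how it performs with the spread of these libraries. Intervals are limma's, at 95%. On the recovered reads edgeR 4.0.16 (quasi-likelihood) called 11 genes and DESeq2 1.42.0 called 190. The other alternatives were other sets of libraries, a pseudocount of 0.1 or of 1, the filter removed or raised to 5 RPM, quantile normalization, TMM factors, no variance trend, no moderation, a replicate block and each library left out.

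The members and the lists were chosen with earlier results of these data known, the lists by role and not by how genes moved. Named genes are the 10 members, NPM1, from each list those that passed, up to 3 others with the largest change among genes that averaged 5 RPM or more in 1 of the groups and did not overlap, and the gene with the highest mean, and the 5 genes nearest to MAP7. GAD1 and the genes named in the closing section for shSc replicate 3 were named after their values were seen. MAP1LC3B and CDK5R1 had no matching symbol and were not analysed. Gene coordinates are from GENCODE mapped to GRCh37, and promoter windows from RefSeq on GRCh38.p14, in which all 10 members had a window. Tables and figures were made with Python 3.11.15, pandas 2.3.3 and matplotlib 3.10.9.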

Additional observations from a re-analysis of the deposited data

Results flagged for a closer look

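Replicate 3 of shSc, which the comparison does not use, held 14 genes of the microtubule lists with at least 10 reads, at least 2 times the highest of the other 5 libraries in RPM and a 95% counting interval over all of theirs. This is 7.25% of the 193 list genes, a smaller share than the 13.95% (2901 genes) of all 20802 genes that met the same limits in that library. None of the 14 is one of the 10 genes of the set, of which 7 lay inside the range of the other libraries in shSc replicate 3. Kinases that act on tau or other MAPs were among the most distinct. TTBK1 was at 56.5 RPM in shSc replicate 3, against at most 0.26 RPM elsewhere, and MARK1 at 46.8 RPM, against at most 0.16 RPM. DCLK1, a doublecortin-like kinase, was at 1.47 RPM and had no read elsewhere. Of the tubulin-modifying enzymes ATAT1 was at 45.0 RPM (at most 7.10 RPM elsewhere), TTLL6 at 26.7 RPM (at most 0.14 RPM) and TTLL9 at 13.01 RPM (at most 0.14 RPM). Of the tubulins TUBB4A was at 65.7 RPM (at most 19.7 RPM elsewhere) and TUBB8 at 20.1 RPM (at most 0.32 RPM). Of the proteins at microtubule ends GAS2L1 was at 58.4 RPM (at most 20.8 RPM elsewhere), CAMSAP3 at 39.7 RPM (at most 5.34 RPM) and APC2 at 4.64 RPM (at most 1.11 RPM). KIAA1383, the older symbol of MAP10, was at 33.5 RPM (at most 0.94 RPM elsewhere). TPPP2, a tubulin polymerization promoting protein, was at 1.13 RPM (at most 0.11 RPM) and FAM154A, the older symbol of SAXO1, was at 1.24 RPM with no read elsewhere. The cause was not tested.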

How the results depend on the processing

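The log2 difference of MAP7 kept its direction under all 20 alternatives (1.90 to 2.12), and the difference in its share of the family lay between 26.6 and 36.7 percentage points with single libraries left out. Both ranges reuse the libraries in which MAP7 was chosen and only describe its values. The adjusted p of MAP7 in the fit reported (0.047, limma) belongs to how it was chosen and is no test of it. Only 5 of the 20 alternatives gave 0.05 or less, so even this depended on the processing. The number of genes passing, 15 in the fit reported, was 3 in all 6 libraries, 0 with shSc replicate 3 in place of replicate 1 or of replicate 2, 2 with no filter, 7 with a filter of 5 RPM, 26 with quantile normalization, 0 with no moderation, 190 with DESeq2 and 0 to 5 with 1 library left out. For the lists DESeq2 called 4 genes. NPM1 passed in DESeq2 (-1.71). With a replicate block, 1698 genes (14.7%) passed, among them 2 of the 8 members (MAP7D3, 1.08, adjusted p = 0.0134, and MAP1B, -0.63, adjusted p = 0.0448), 28 list genes (20.3% of the 138 tested) and NPM1 (-1.46, adjusted p = 4.7e-06). That block rests on 2 pairs. Over all 6 libraries, deviations of same-numbered libraries correlated at 0.43, 0.308 and 0.041, and those of differently numbered libraries at -0.367 to 0.098. Deviations within a group sum to 0, so positive values for equal numbers bring negative ones across numbers with them. In the 5 libraries compared, replicates 1 and 2 gave 0.531 and 0.463 with the same number. The deviations of the 2 shSc libraries there are mirror images. Values across numbers (-0.531 and -0.463) therefore repeat these with the sign turned and add nothing on pairing. The labels do not say that libraries of equal number were handled together, so the fit reported has no block. Any structure shared by same-numbered libraries is left out of its p-values. A block over all 6 libraries, chosen after seeing the data, gave 0 genes passing. Where 1 shSc library was left, it was assumed to vary like the NPMKD libraries.

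Some differences that did not pass changed sign, mostly but not always small ones (TUBB was 0.75 in the fit reported). In all 6 libraries, with and without the block, this held for MAP4 (0.058), CKAP5 (0.098), KATNA1 (0.014) and TTLL12 (0.059). With shSc replicate 3 in place of replicate 1 it held for CKAP5 (0.34), TUBB (-0.14) and TTLL12 (0.22), and in place of replicate 2 for MAP1S (0.062), MAP4 (0.32), STMN1 (-0.43), STMN3 (0.0545), KATNA1 (0.16) and TTLL12 (0.038). STMN1 was -0.046 in edgeR and -0.064 in DESeq2, and CKAP5 was 0.0054 after quantile normalization. With single libraries left out the ranges were -0.48 to 0.042 for MAP7D1, -0.47 to 0.42 for MAP4, -0.76 to 1.23 for STMN1, -0.38 to 0.34 for CKAP5, -0.75 to 0.14 for STMN3, -0.27 to 0.14 for KATNA1, -0.16 to 1.67 for TUBB, -0.048 to 0.32 for TUBGCP4, -0.25 to 0.10 for TTLL12 and -0.17 to 0.24 for GSK3A. The cause of these reversals was not tested beyond the library left out. MAP7D2, MAPRE2 and STMN1 had 0 to 89 reads per library. For STMN1 the counting intervals of shSc replicate 1 (5.04 to 7.72 RPM) and replicate 2 (0.67 to 1.97 RPM), its highest and lowest shSc libraries, did not meet. The cause of this spread was not tested.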
